A study of Mus musculus with 21 samples.

Results

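The 10 genes described here encode proteins that build the axon initial segment, the node of Ranvier and the zones beside the node. They were taken as a list of symbols, *Ank3*, *Ank2*, *Sptbn4*, *Nfasc*, *Nrcam*, *Cntn1*, *Cntnap1*, *Cntnap2*, *Gldn* and *Epb41l3*, and all 10 were found among the 52550 genes of the deposited count table. The rule used symbols only and no measured value, but the list was chosen with earlier results of these data known. Member counts set beside shares of all genes are read with that limit. All 10 passed the filter on low counts. The study profiled spiral ganglion neurons (SGNs), the neurons that carry sound signals from the hair cells (HCs) to the brain, by bulk RNA-Seq on 5 days of life, namely E15.5 before birth and P1, P8, P14 and P30 after it, and set beside them P12 HCs and P8 glia. Each of the 7 groups had 3 libraries, so 21 libraries were analysed, and the 3 values given for a group are those of replicates 1, 2 and 3 in that order.

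Every mouse was on the C57BL/6 background and carried the Cre-dependent tdTomato reporter Rosa26-CAG-loxp-stop-loxp-tdTomato/+. SGNs came from cochleae in which ShhCre/+ had switched on the reporter. The Cre line of the HCs was Atoh1-CreER+, induced with tamoxifen at P0 and P1, and the labels name cochlear and vestibular tissue as their source. Glia were marked by vGlut3-iCreER/+ with tamoxifen at P2 and P3, and were taken from the SGN area of the cochlea. Between 69 and 195 cells were picked by hand for each SGN library and between 86 and 125 for each glial library, while each HC library held 1200 cells, which the labels describe as picked and the methods as sorted. SGN preparations were kept only after a qPCR screen that included depletion of *Sox10* and *Myo6*, so these genes are no independent check of purity. The labels do not say whether the 3 libraries of a group came from separate animals, so the p-values below measure the spread between libraries, which may be technical.

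In a myelinated axon, voltage-gated sodium channels cluster at the initial segment and at the gaps between myelin segments, the nodes. Ankyrin-G (*Ank3*) holds the channels there and is tied by beta IV spectrin (*Sptbn4*) to actin, with neurofascin (*Nfasc*) and NrCAM (*Nrcam*) as the adhesion molecules of the nodal membrane and gliomedin (*Gldn*) as their extracellular partner, which in peripheral nerve is made by Schwann cells. Beside the node, contactin (*Cntn1*) and Caspr (*Cntnap1*) form the axonal side of the paranodal junction with myelin, and Caspr2 (*Cntnap2*) holds potassium channels in the juxtaparanode. Protein products of *Epb41l3* anchor both Caspr proteins to the cytoskeleton, and ankyrin-B (*Ank2*) is the more widely spread axonal ankyrin, found beyond the initial segment. SGN axons become myelinated in the first postnatal weeks of the mouse.

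Library totals ranged from 10368240 to 37287489 counts. Counts of 3 corresponded to between 0.0805 and 0.289 CPM (counts scaled to the library total), and every library held at least 275 counts of *Ank2* and 3413 of *Ank3*. The thinnest values were those of *Sptbn4* in glia (78, 4 and 2 counts). Levels below are TMM-normalised RPKM, that is, CPM scaled between libraries by the trimmed mean of M values and divided by gene length in kilobases, so that they can be compared between genes. Differences are log2 changes from limma-voom, which were fitted on the whole table and called at 2-fold and an adjusted p under 0.05 between ages, and at 4-fold and an adjusted p under 0.01 between cell types. Summed over 14 Schwann cell and glial markers, the SGN libraries held 113 to 1790 TPM and the glial libraries 8356 to 11531, and over 10 hair cell markers SGNs held 30.2 to 801 TPM and HCs 5653 to 6869. The sum of 9 SGN and neuronal markers was 1003 to 9417 TPM in SGNs, 426 to 448 in HCs and 39.7 to 381 in glia, with the highest glial value in replicate 1. In a bulk library, fewer cells of a type and less RNA per cell cannot be told apart.

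The question of the age series was how the node and initial segment transcripts changed while SGNs matured. From E15.5 to P30, 6 of the 10 members rose, *Gldn*, *Cntnap1*, *Cntnap2*, *Epb41l3*, *Cntn1* and *Ank2*, and *Nrcam* fell, where 34.6% of the 15113 genes tested passed the same thresholds, 18.4% upward and 16.2% downward. Between E15.5 and P1, 4 members rose and none fell (8.26% of all genes were called, 5.08% as a rise and 3.18% as a fall). *Cntnap1* and *Gldn* rose again from P1 to P8 (7.44% of all genes, 4.29% up and 3.15% down), none passed from P8 to P14 (0.536%, 0.251% up and 0.285% down), and *Gldn* alone fell from P14 to P30 (0.0596%, 0.0331% up and 0.0265% down). The median log2 change of the members was 0.75 from E15.5 to P1 and 0.41 from P1 to P8, beside 0.07 and -0.01 over all genes tested, and from E15.5 to P30 it was 1.29 beside -0.01. These comparisons share libraries with each other, so their values are given side by side without a test of their overlap.

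**Figure D1:**
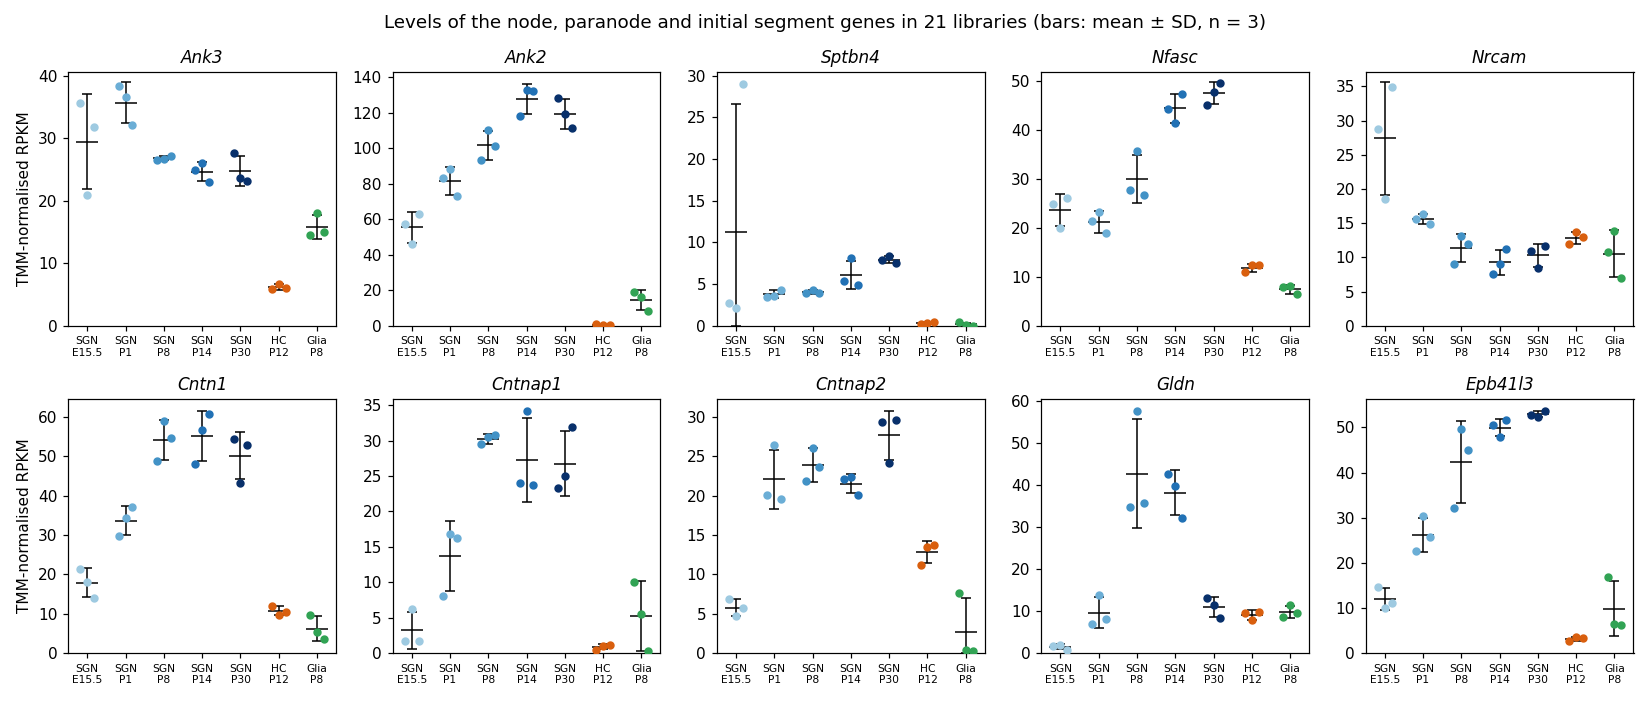
Level of each of the 10 members in the 7 groups, in TMM-normalised RPKM, with 1 point per library and bars for the mean and SD (n = 3). *Ank2* has the highest level at all 5 SGN ages and is near 0 in HCs, *Nrcam* is highest at E15.5, and *Gldn* peaks at P8 and P14.

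The ankyrins and their spectrin took different courses. *Ank2* stood at 57.3, 46.02 and 63.2 at E15.5, 83.6, 88.6 and 73.1 at P1, 93.6, 110.2 and 101 at P8, 118, 133 and 133 at P14 and 128, 119 and 111 at P30. Every library from P1 on lay above every E15.5 library, though in TPM E15.5 reached 114 and P30 began at 97.97. The change from E15.5 to P30 was 1.09 (SE 0.12, limma BH-adjusted p = 3.2e-06). Without replicate 2 of E15.5, the lowest of the 3, this change was 0.95, adjusted p = 1.8e-05 and no longer reached 2-fold. The call was also lost with scaling by library size only (0.62, adjusted p = 0.0015) and on log2(TPM + 1) (0.92, adjusted p = 0.17). Antisense transcript *Gm16958* shares 182 exonic bases (0.520%) with *Ank2*, and the strand setting of the counting was not given in the sources used here. *Ank2* (ENSMUSG00000032826.17) spans bases 126921612 to 127499350 of chromosome 3 (- strand) in GRCm38, with 59 exons after merging over transcripts.

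*Ank3*, the ankyrin of the initial segment and node, held 35.6, 20.98 and 31.8 at E15.5, 38.4, 36.6 and 32.1 at P1, 26.5, 26.7 and 27.1 at P8, 24.998, 26.001 and 22.9 at P14 and 27.6, 23.6 and 23.2 at P30. The E15.5 libraries overlapped all later ages, and the change from E15.5 to P30 was -0.23 (SE 0.16, limma BH-adjusted p = 0.27), with a 95% interval of -0.56 to 0.11. P1 libraries lay above all those of P8, P14 and P30, with a change from P1 to P14 of -0.53 (SE 0.15, limma BH-adjusted p = 0.023) that stayed under 2-fold. *Ank3* was thus the member with the narrowest range of age means, the highest being 1.45 times the lowest. *Ank3* (ENSMUSG00000069601.14) spans bases 69398773 to 70027438 of chromosome 10 (+ strand) in GRCm38, with 63 exons after merging over transcripts.

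*Sptbn4* held 2.77, 2.11 and 29.004 at E15.5, 3.50, 3.53 and 4.30 at P1, 3.89, 4.31 and 3.90 at P8, 5.35, 8.08 and 4.86 at P14 and 7.89, 8.38 and 7.52 at P30. Replicate 3 of E15.5 stood far above the other 20 libraries. With it, the change from E15.5 to P30 was 0.42 (SE 0.59, limma BH-adjusted p = 0.6), and without it the change was 1.71, adjusted p = 3.6e-04 and passed the call. The same library turned the change from E15.5 to P1 from 0.66 without it to -0.63 with it, neither of which was called. Exons of *Sptbn4* share 243 bases (2.54%) with the transcript *Gm44924* on the opposite strand and 134 (1.40%) with *Gm20479* on the same strand, so its counts are uncertain to that extent. *Sptbn4* (ENSMUSG00000011751.16) spans bases 27356383 to 27447686 of chromosome 7 (- strand) in GRCm38, with 40 exons after merging over transcripts.

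Of the nodal adhesion molecules, *Nfasc* rose from P1 to P14 and *Nrcam* fell from E15.5 to P30. *Nfasc* held 24.9, 19.9 and 26.1 at E15.5, 21.4, 23.3 and 18.9 at P1, 27.7, 35.8 and 26.8 at P8, 44.3, 41.5 and 47.5 at P14 and 45.2, 47.8 and 49.6 at P30. E15.5 and P1 overlapped, the P8 libraries lay above those of P1, and P14 and P30 lay above P8. *Nfasc* rose from P1 to P14 by 1.08 (SE 0.14, limma BH-adjusted p = 6.1e-05), a call lost with library size only (0.75, adjusted p = 0.003) and on log2(TPM + 1) (0.74, adjusted p = 0.44). From E15.5 to P30 its change of 0.98 (SE 0.15, limma BH-adjusted p = 6.8e-05) fell just short of 2-fold, and it passed without replicate 1 of E15.5 (1.03), without replicate 3 of E15.5 (1.07) or without replicate 1 of P30 (1.03). The step from P8 to P14 was 0.57 (SE 0.14, limma BH-adjusted p = 0.068). *Nfasc* (ENSMUSG00000026442.14) spans bases 132564690 to 132741797 of chromosome 1 (- strand) in GRCm38, with 36 exons after merging over transcripts.

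*Nrcam* held 28.7, 18.6 and 34.98 at E15.5, 15.6, 16.4 and 14.9 at P1, 9.10, 13.1 and 11.9 at P8, 7.53, 9.10 and 11.2 at P14 and 10.9, 8.40 and 11.6 at P30. All E15.5 libraries lay above all those of each later age, though in TPM replicate 2 of E15.5 (16.8) lay below all P1 libraries. *Nrcam* fell from E15.5 to P30 by 1.39 (SE 0.22, limma BH-adjusted p = 1.4e-04) on the log2 scale. The first step, to P1, was -0.76 (SE 0.21, limma BH-adjusted p = 0.028) and under 2-fold, and without replicate 2 of E15.5 it was -1.04, adjusted p = 0.0022. The P1 libraries lay above all those of P8, and the change from P1 to P14 was -0.78 (SE 0.23, limma BH-adjusted p = 0.027), also under 2-fold. With library size only it was -1.10, adjusted p = 0.0036 and called. The P8, P14 and P30 libraries overlapped. *Nrcam* (ENSMUSG00000020598.16) spans bases 44328885 to 44601964 of chromosome 12 (+ strand) in GRCm38, with 38 exons after merging over transcripts.

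*Gldn* had the widest range of age means, the highest being 28.4 times the lowest. Its level was 1.79, 1.90 and 0.825 at E15.5, 6.81, 13.8 and 8.22 at P1 and 34.6, 57.6 and 35.6 at P8. It then stood at 42.5, 39.7 and 32.2 at P14 and 13.1, 11.5 and 8.36 at P30. The P8 and P14 libraries lay above all those of the other 3 ages, and the P30 libraries overlapped those of P1. *Gldn* rose from E15.5 to P1 by 2.70 (SE 0.58, limma BH-adjusted p = 0.0082) and from P1 to P8 by 2.21 (SE 0.27, limma BH-adjusted p = 8.6e-05), and from P14 to P30 it fell by 1.83 (SE 0.29, limma BH-adjusted p = 0.017) on the log2 scale. The rise to P1 lost its call with sample weights (2.81, adjusted p = 0.061). The call of the fall was lost without replicate 1 of P14 (-1.70, adjusted p = 0.12), replicate 2 of P14 (-1.78, adjusted p = 0.13), replicate 1 of P30 (-1.97, adjusted p = 0.066), replicate 2 of P30 (-1.83, adjusted p = 0.058) or replicate 3 of P30 (-1.63, adjusted p = 0.17), each time with the same direction, and in edgeR's quasi-likelihood test it had an adjusted p of 0.079. *Gldn* (ENSMUSG00000046167.5) spans bases 54286486 to 54341786 of chromosome 9 (+ strand) in GRCm38, with 10 exons after merging over transcripts.

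Glial transcripts moved with *Gldn* in part. From P1 to P8, 9 of the 12 glial markers tested rose, beside 4.29% of all genes. The summed level of all 14 markers went from 194 to 294 TPM at P1 to 994 to 1790 at P8, 428 to 1327 at P14 and 232 to 491 at P30. Without *S100b*, which was higher in P8 SGNs than in glia, the other 13 markers summed to 116 to 241 TPM at P1, 857 to 1595 at P8, 264 to 1092 at P14 and 11.4 to 254 at P30. The median log2 change of the 12 tested markers was -2.07 from P14 to P30, over the step in which *Gldn* fell, and none of them passed the test. The part of glial transcripts in the *Gldn* changes was not tested. *Prx*, a myelin protein of Schwann cells, rose from P1 to P8 by 3.84 (limma BH-adjusted p = 3.0e-04). Against the glial libraries, 13 of the 14 markers were lower in P8 SGNs and *S100b* was higher, beside 7.53% and 13.4% of all genes. *Mag* and *Pllp* were the lowest of the 14 at P8, at 0.263 to 0.746 and 0.113 to 0.462 TPM, and none was at 0. In the glial libraries themselves *Gldn* was 8.60, 11.3 and 9.58, below each of the 6 SGN libraries of P8 and P14. All 10 members had a lower mean in glia than in P8 SGNs. Over the step from E15.5 to P1 the summed hair cell markers went from 30.2 to 178 TPM to 476 to 558 TPM. In TMM-normalised RPKM, the *Gldn* level in HCs (9.53, 7.75 and 9.83) overlapped that of P1 SGNs. In TPM it did not, with 28.2 to 36.8 in HCs and at most 22.2 in P1 SGNs. The part of hair cell transcripts in the *Gldn* step from E15.5 to P1 was not tested.

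**Figure D2:**
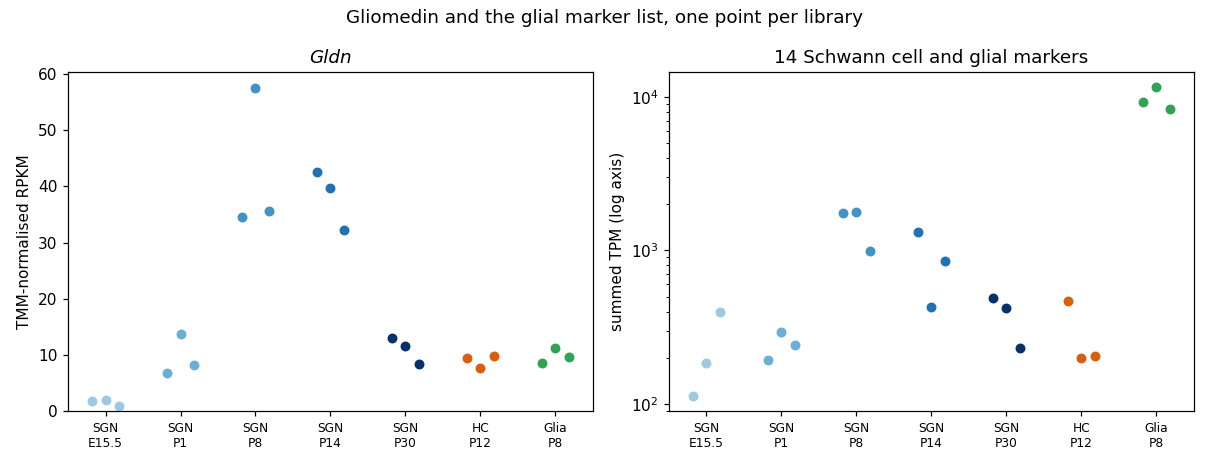
Left, level of *Gldn* in each of the 21 libraries, in TMM-normalised RPKM; right, the summed TPM of the 14 Schwann cell and glial markers in the same libraries, on a log axis. The glial libraries have the highest marker sums and *Gldn* levels of 8.60 to 11.3, below all P8 and P14 SGN libraries.

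All 3 paranodal members rose from E15.5 to P30. *Cntnap1* was at 1.74, 6.23 and 1.70 at E15.5, 8.01, 16.7 and 16.3 at P1, 29.5, 30.5 and 30.8 at P8, 23.99, 34.2 and 23.7 at P14 and 23.3, 25.01 and 31.9 at P30. Replicate 2 of E15.5 and replicate 1 of P1 stood nearest to each other, yet no E15.5 library reached P1 and no P1 library reached P8. In TPM, P1 reached 40.7 and P8 began at 29.9. The steps were 2.20 (SE 0.46, limma BH-adjusted p = 0.0074) and 1.26 (SE 0.27, limma BH-adjusted p = 0.0064), and the whole change to P30 was 3.23 (SE 0.45, limma BH-adjusted p = 3.9e-05). The first step lost its call in the fit of only the 2 groups (2.16, adjusted p = 0.059). Without replicate 1 of P1, the lowest of its group, the second step was 0.87, adjusted p = 0.056 and the change from P1 to P14, 1.10 (SE 0.29, limma BH-adjusted p = 0.011) with all libraries, was 0.70, adjusted p = 0.086. Leaving out replicate 2 of P14, the highest there, gave 0.93, adjusted p = 0.059 for that change. It was also under the thresholds with library size only (0.78, adjusted p = 0.048), sample weights (0.99, adjusted p = 0.0086), edgeR (0.999, adjusted p = 0.1), DESeq2 (0.999, adjusted p = 0.049) and on log2(TPM + 1) (0.70, adjusted p = 0.46). *Plekhh3*, on the opposite strand, shares 233 exonic bases (3.97%) with *Cntnap1*. *Cntnap1* (ENSMUSG00000017167.6) spans bases 101170523 to 101190724 of chromosome 11 (+ strand) in GRCm38, with 25 exons after merging over transcripts.

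*Cntn1*, the partner of Caspr, held 21.4, 18.2 and 13.99 at E15.5, 29.7, 34.2 and 37.1 at P1, 48.8, 59.02 and 54.6 at P8, 48.1, 56.7 and 60.7 at P14 and 54.4, 43.3 and 52.7 at P30. The 3 earliest ages did not overlap each other, and P8, P14 and P30 did. In TPM, P1 reached 92.7 and P8 began at 53.0. *Cntn1* rose from E15.5 to P30 by 1.496 (SE 0.17, limma BH-adjusted p = 5.0e-06). Its first step of 0.94 (SE 0.17, limma BH-adjusted p = 0.0035) was under 2-fold and passed without replicate 1 of E15.5 (1.07) or replicate 1 of P1 (1.04). *Cntn1* (ENSMUSG00000055022.14) spans bases 92051165 to 92341967 of chromosome 15 (+ strand) in GRCm38, with 26 exons after merging over transcripts.

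*Epb41l3*, the cytoskeletal anchor, held 14.6, 9.996 and 11.2 at E15.5, 22.7, 30.3 and 25.6 at P1, 32.2, 49.7 and 44.98 at P8, 50.4, 47.9 and 51.5 at P14 and 52.7, 52.4 and 53.7 at P30. E15.5, P1 and P8 were apart from each other in every library, and the SD at P30 was small (52.9 ± 0.683, SD, n = 3). In TPM, P1 (39.8 to 63.96) and P8 (42.95 to 111) overlapped. It rose by 1.15 (SE 0.20, limma BH-adjusted p = 0.0019) to P1 and by 2.15 (SE 0.19, limma BH-adjusted p = 2.9e-07) to P30, and its change from P1 to P14 of 0.96 (SE 0.17, limma BH-adjusted p = 6.2e-04) passed 2-fold without replicate 2 of P1 (1.07). *Epb41l3* (ENSMUSG00000024044.17) spans bases 69075683 to 69289989 of chromosome 17 (+ strand) in GRCm38, with 27 exons after merging over transcripts.

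*Cntnap2*, the juxtaparanodal member, rose in its first step. It was at 6.90, 4.65 and 5.77 at E15.5, 20.2, 26.4 and 19.6 at P1, 21.9, 26.1 and 23.7 at P8, 22.1, 22.4 and 20.1 at P14 and 29.3, 24.1 and 29.6 at P30. The E15.5 libraries lay below all others and the libraries of P1, P8 and P14 overlapped. *Cntnap2* rose from E15.5 to P1 by 1.96 (SE 0.20, limma BH-adjusted p = 2.4e-05), and its change from P1 to P14 was -0.01 (SE 0.16, limma BH-adjusted p = 0.98), with a 95% interval of -0.35 to 0.33. The P30 libraries lay above those of P14 at 0.32 (SE 0.16, limma BH-adjusted p = 0.79). *Cntnap2* (ENSMUSG00000039419.17) spans bases 45059357 to 47304213 of chromosome 6 (+ strand) in GRCm38, with 28 exons after merging over transcripts.

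Counted over the members, the libraries of neighbouring ages did not overlap for 7 of 10 from E15.5 to P1, 8 from P1 to P8, 4 from P8 to P14 and 2 from P14 to P30. Over all genes tested these shares were 26.6%, 32.7%, 19.5% and 14.4%. From E15.5 to P30 the members apart were 8 of 10, against 50.6% of all genes. In TPM, the P1 and P8 libraries overlapped for every member but *Gldn*. Of the members apart from E15.5 to P30, *Ank2* and *Nfasc* overlapped in TPM. The shares of all genes in TPM were not counted. For P8 to P14, limma called no member, with 2 at an unadjusted p under 0.05 (*Ank2* and *Nfasc*), and edgeR and DESeq2 called 0 as well. On log2(TPM + 1), a scale added after seeing the data, no member was called from P1 to P8 (*Gldn* 1.69, adjusted p = 0.09, *Cntnap1* 0.76, adjusted p = 0.53). Over all genes it called 304 for that step, beside 1124 in limma. From P1 to P14, 3 members rose (*Gldn*, *Cntnap1* and *Nfasc*) beside 14.7% of all genes called, 7.98% as a rise and 6.7% as a fall, and 9 of 10 members were apart against 38.9%.

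**Figure D3:**
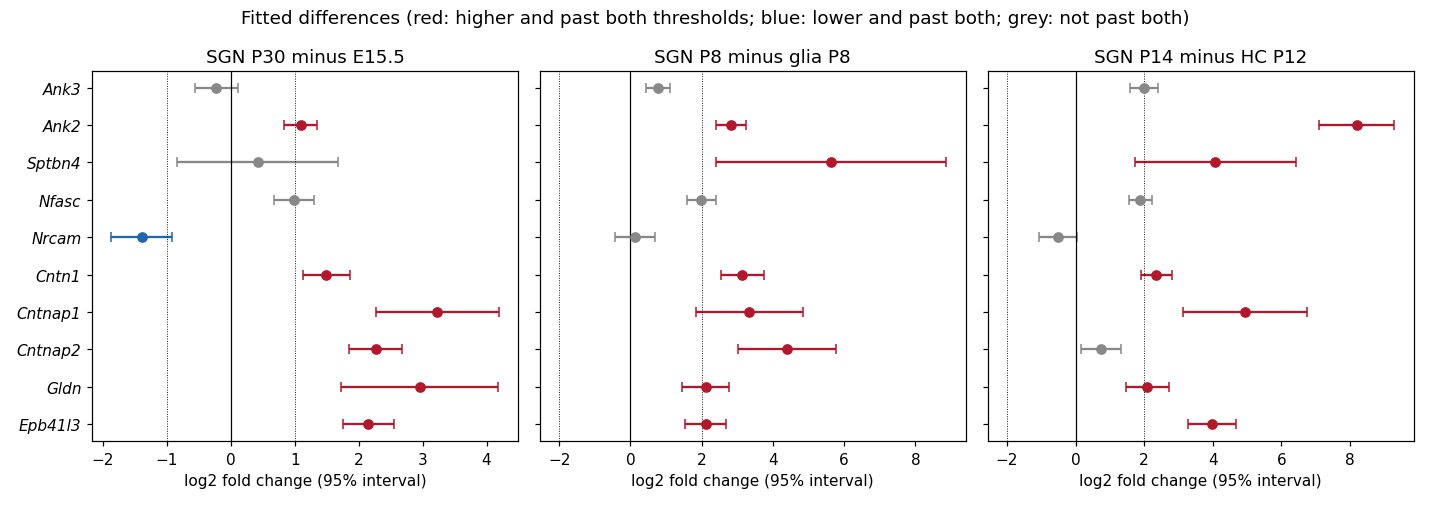
Log2 change of each member from limma-voom, with 95% intervals, for SGN P30 minus E15.5, SGN P8 minus glia P8 and SGN P14 minus HC P12. Red points were higher and blue points lower past both thresholds of the comparison, and grey points did not pass both. From E15.5 to P30, 6 members rose and *Nrcam* fell.

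The windows around the transcription start are shown for 3 of the members that rose to P1 and for the 1 that fell by P30, since these are the sequences in front of the genes whose transcripts moved in opposite directions. RefSeq (GRCm38.p6) gave a window of 250 bases before and 50 after a start for 8 of the 10 members, and for genes with several starts the one farthest upstream was taken. The windows lie at chr9:54286236-54286535 (+) for *Gldn*, chr6:45059811-45060110 (+) for *Cntnap2*, chr17:69075427-69075726 (+) for *Epb41l3* and chr12:44328635-44328934 (+) for *Nrcam*. Capitals mark matches to 6 motifs searched on both strands.
Gldn: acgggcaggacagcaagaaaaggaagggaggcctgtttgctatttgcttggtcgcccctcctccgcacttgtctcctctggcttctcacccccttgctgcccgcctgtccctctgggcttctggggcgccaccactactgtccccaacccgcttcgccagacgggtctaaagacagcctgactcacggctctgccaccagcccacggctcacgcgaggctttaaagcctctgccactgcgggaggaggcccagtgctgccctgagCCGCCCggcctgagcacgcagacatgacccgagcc
Cntnap2: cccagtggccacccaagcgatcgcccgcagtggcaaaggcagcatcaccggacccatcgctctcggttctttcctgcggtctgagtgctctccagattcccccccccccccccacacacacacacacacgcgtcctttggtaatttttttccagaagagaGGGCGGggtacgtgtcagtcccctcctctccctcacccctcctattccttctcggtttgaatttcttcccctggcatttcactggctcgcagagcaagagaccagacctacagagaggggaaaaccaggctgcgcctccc
Epb41l3: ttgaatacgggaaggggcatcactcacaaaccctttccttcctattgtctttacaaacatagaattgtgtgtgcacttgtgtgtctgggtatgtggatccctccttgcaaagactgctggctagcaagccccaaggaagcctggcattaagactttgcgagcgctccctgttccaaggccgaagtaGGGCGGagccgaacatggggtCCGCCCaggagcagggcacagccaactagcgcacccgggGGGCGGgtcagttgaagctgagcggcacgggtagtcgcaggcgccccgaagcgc
Nrcam: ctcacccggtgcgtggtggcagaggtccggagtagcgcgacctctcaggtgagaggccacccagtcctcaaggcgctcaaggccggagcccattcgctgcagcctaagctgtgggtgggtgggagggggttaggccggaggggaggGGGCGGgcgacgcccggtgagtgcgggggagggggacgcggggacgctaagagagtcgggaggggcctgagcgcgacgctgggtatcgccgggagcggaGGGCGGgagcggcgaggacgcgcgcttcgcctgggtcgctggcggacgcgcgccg

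The motifs were the GC box (GGGCGG), the CCAAT box (CCAAT), the TATA box (TATAAA), 1 form of the E-box (CAGCTG), the cAMP response element (TGACGTCA) and the left part of the RE1 element (TTCAGCACC). All 4 windows hold the GC box, with 1 match in *Gldn*, 1 in *Cntnap2*, 3 in *Epb41l3* and 2 in *Nrcam*, and none of the other 5 motifs. *Sptbn4* (2 matches) and *Nfasc* (1) hold it too, while the *Ank2* and *Cntn1* windows do not and have a CCAAT box, and that of *Ank2* also has a TATA box. Of the 32851 RefSeq windows of this length, 35.7% hold the GC box and 37.4% the CCAAT box. *Nrcam* has the window richest in CpG of the 4, with 37 CpG and a GC content of 74.0%, beside 17 in *Gldn*, 16 in *Epb41l3*, 14 in *Cntnap2* and a median of 7 over all windows. *Sptbn4* had 41, *Ank2* 21, *Cntn1* 9 and *Nfasc* 7. These matches describe the letters of the windows and no binding was measured.

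Ordered by level per length, *Ank2* led the members at all 5 ages without overlap with the next. At E15.5 it was followed by *Ank3*, *Nrcam*, *Nfasc* and *Cntn1*, which overlapped their neighbours, and *Cntnap1* and *Gldn* came last. At P8 *Ank2* was followed by *Cntn1*, *Gldn* and *Epb41l3*, overlapping each other, and at P30 it was followed by *Epb41l3*, *Cntn1* and *Nfasc*, whose neighbours also overlapped. *Nrcam*, in the third place at E15.5, was ninth at P8, P14 and P30, and *Sptbn4* was last from P1 on. Summed over the 10 members, the level of the E15.5 libraries was 188 ± 35.7 and that of P1 was 263 ± 23.0 (SD, n = 3). It was 367 ± 42.9 for P8, 404 ± 15.8 for P14 and 379 ± 14.4 for P30, and the libraries of these last 3 ages overlapped. In HCs the sum was 68.5 ± 2.74 and in glia 82.3 ± 24.7. In TPM it was 246 ± 21.4 in HCs, 93.9 ± 31.9 in glia and 276 ± 131 at E15.5 (SD, n = 3). The order of HCs and glia thus depended on the scale.

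The comparison with glia of the same age asked which of these transcripts were more abundant in the neurons. Of the 10 members 7 were higher in P8 SGNs than in P8 glia and none was lower, where 20.9% of the 17531 genes tested were called, 13.4% higher and 7.53% lower. The median difference was 2.47 over the members and 0.22 over all genes. *Cntnap2* was at 7.60, 0.350 and 0.227 in glia, and the difference was 4.39 (SE 0.66, limma BH-adjusted p = 2.6e-05). *Cntnap1* was at 10.1, 5.47 and 0.231 in glia with a difference of 3.34 (SE 0.72, limma BH-adjusted p = 9.0e-04), and *Cntn1* at 9.66, 5.26 and 3.46 with 3.14 (SE 0.29, limma BH-adjusted p = 6.4e-08). For these 3 genes, and for *Epb41l3* (16.9, 6.49 and 6.12), glial replicate 1 had the highest value, as it had of the neuronal markers, and no glial library reached a P8 SGN library. Without it the differences were 6.37 for *Cntnap2*, 4.65 for *Cntnap1*, 3.65 for *Cntn1* and 2.71 for *Epb41l3*, all called. *Cntnap1* missed 4-fold without glial replicate 3, at 1.94, adjusted p = 9.3e-04. Its call was also lost with edgeR (2.52, adjusted p = 0.013), sample weights (3.20, adjusted p = 0.012) and only the 2 groups (3.42, adjusted p = 0.017).

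*Ank2* was at 19.04, 16.02 and 8.33 in glia, a difference of 2.82 (SE 0.21, limma BH-adjusted p = 3.9e-09). *Sptbn4* differed by 5.64 (SE 1.55, limma BH-adjusted p = 0.0059) on 78, 4 and 2 glial counts, so the 95% interval of 2.41 to 8.87 was wide. Its call was lost without glial replicate 1 (6.96, adjusted p = 0.015), glial replicate 2 (5.11, adjusted p = 0.048), glial replicate 3 (4.77, adjusted p = 0.056) or SGN replicate 2 (5.60, adjusted p = 0.01). *Gldn* and *Epb41l3* were higher in SGNs by 2.11 (SE 0.32, limma BH-adjusted p = 2.5e-05) and 2.11 (SE 0.28, limma BH-adjusted p = 6.5e-06), both close to the 4-fold threshold. *Gldn* was under it without SGN replicate 2 (1.87) or glial replicate 1 (1.99), and *Epb41l3* without SGN replicate 2 (1.97), glial replicate 2 (1.88) or glial replicate 3 (1.87).

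Of the 3 members not called against glia, *Nfasc* was at 7.93, 8.13 and 6.41 in glia and its difference of 1.99 (SE 0.20, limma BH-adjusted p = 1.9e-07) lay just under 4-fold. Neurons and myelinating glia make different isoforms of neurofascin, which gene-level counts do not separate. The difference passed without SGN replicate 1 (2.05), SGN replicate 3 (2.06), glial replicate 1 (2.05) or glial replicate 2 (2.04). *Ank3* was at 14.5, 18.1 and 14.9 in glia, below all P8 SGN libraries, and differed by 0.77 (SE 0.17, limma BH-adjusted p = 7.8e-04). *Nrcam*, at 10.7, 13.9 and 7.01, overlapped P8 SGNs, and its difference was 0.12 (SE 0.27, limma BH-adjusted p = 0.75), with a 95% interval of -0.45 to 0.68. In 9 of the 10 members no library of 1 group reached the other, against 44.9% of all genes.

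Set against HCs of about the same age, 6 of 10 members were higher in P14 SGNs and none was lower, where 23.1% of all genes were called, 10.9% higher and 12.2% lower, and the median difference was 2.22 beside -0.04 over all genes. P14 replicate 1 held 801 TPM of the hair cell markers, and the other 2 held 85.2 and 87.4. *Ank2* held 0.805, 0.338 and 0.346 in HCs, on 475, 275 and 300 counts, and differed by 8.19 (SE 0.53, limma BH-adjusted p = 3.6e-10), the largest of the members in the comparisons of cell types. *Cntnap1* (0.475, 1.06 and 1.15 in HCs) differed by 4.94 (SE 0.87, limma BH-adjusted p = 9.9e-05) and *Epb41l3* (2.61, 3.46 and 3.42) by 3.97 (SE 0.33, limma BH-adjusted p = 1.5e-08). *Cntn1* was at 12.01, 9.76 and 10.6 in HCs and differed by 2.35 (SE 0.22, limma BH-adjusted p = 4.2e-08).

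*Sptbn4*, at 0.217, 0.387 and 0.468 in HCs, differed by 4.08 (SE 1.13, limma BH-adjusted p = 0.0058). The call of *Sptbn4* was lost without HC replicate 1 (3.80, adjusted p = 0.022), HC replicate 2 (4.16, adjusted p = 0.025), HC replicate 3 (4.31, adjusted p = 0.024) or SGN replicate 2 (3.82, adjusted p = 0.016). *Gldn* differed by 2.09 (SE 0.30, limma BH-adjusted p = 8.8e-06) and was under 4-fold without SGN replicate 1 (1.96) or HC replicate 2 (1.98). *Ank3*, at 5.82, 6.74 and 6.03 in HCs, missed 4-fold with 1.99 (SE 0.19, limma BH-adjusted p = 7.9e-08) and passed without HC replicate 2 (2.06). The remaining 3 members were the closest between the cell types.

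*Nfasc* was at 10.97, 12.3 and 12.4 in HCs and differed by 1.89 (SE 0.16, limma BH-adjusted p = 1.3e-08). *Cntnap2* was at 11.2, 13.5 and 13.8 and differed by 0.74 (SE 0.29, limma BH-adjusted p = 0.04). *Nrcam* was at 11.9, 13.7 and 12.99 in HCs, above all P14 SGN libraries, with a difference of -0.52 (SE 0.26, limma BH-adjusted p = 0.12) and a 95% interval of -1.07 to 0.03. On the TMM scale, the SGN and HC libraries were apart for all 10 members, against 63% of all genes. In TPM, the P14 and HC libraries overlapped for *Ank3*, *Nfasc*, *Cntnap2* and *Gldn*.

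HCs and glia were compared with each other for the same list. *Cntnap2* was higher in HCs by 3.51 (SE 0.68, limma BH-adjusted p = 3.1e-04) and *Ank2* was lower, with a difference of -5.05 (SE 0.56, limma BH-adjusted p = 5.8e-07), and the other 8 members were not called (24.4% of all genes were, 16.2% higher in HCs and 8.18% lower). The *Cntnap2* difference was 5.48 without glial replicate 1, 2.71 without replicate 2 and 2.53 without replicate 3, and its call was lost with edgeR (2.22, adjusted p = 0.024) and in the fit of only the 2 groups (3.56, adjusted p = 0.018). Without the filter on low counts *Ank2* had -5.00, adjusted p = 0.21. Groups did not overlap for 6 members, against 48.8% of all genes. *Cntnap1* differed by -1.78 (SE 1.08, limma BH-adjusted p = 0.19) with its 3 glial values spread from 0.23 to 10.1, and without glial replicate 3 it was lower in HCs, at -3.17, adjusted p = 0.0015.

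Each SGN age was also set against the same HC and glial libraries, where 21.1% to 24.8% of all genes were called against HCs and 16.4% to 25.6% against glia. *Ank2* was higher than in HCs at 5 of 5 ages, *Ank3*, *Cntnap1* and *Epb41l3* at 4, *Sptbn4* and *Cntn1* at 3 and *Gldn* at 2. At E15.5 *Gldn* was lower than in HCs, with a difference of -2.69 (SE 0.57, limma BH-adjusted p = 6.7e-04), and lower than in glia, with -2.79 (SE 0.58, limma BH-adjusted p = 9.1e-04). It was the single member with a call in both directions. *Nfasc*, *Nrcam* and *Cntnap2* were called against HCs at no age, with differences from 0.83 to 1.98, -0.52 to 1.03 and -1.20 to 1.10. Against glia, *Sptbn4* was higher at 5 ages, *Ank2*, *Cntnap2* and *Cntn1* at 4, *Cntnap1* and *Epb41l3* at 3, *Nfasc* at 2 (P14, with 22.5% of all genes called, and P30, with 25.6%) and *Gldn* at 1. *Ank3* and *Nrcam* were called against glia at no age.

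Related members were compared within each library as the difference of log2(TPM + 1), in which the scaling between libraries nearly cancels. *Nfasc* minus *Nrcam* was -0.20, 0.09 and -0.41 at E15.5 and 1.97, 2.43 and 1.99 at P30. The 2 adhesion molecules were thus near equal at first and *Nfasc* stood above *Nrcam* in every later library. The mean difference went through 0.43 at P1, 1.35 at P8 and 2.19 at P14 to 2.13 at P30, and it was -0.11 in HCs and -0.41 in glia. P30 minus E15.5 gave 2.30, with an exact two-sided permutation p of 0.1, the smallest that 3 libraries against 3 can give (0.15 after BH adjustment over the 3 pairs tested).

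*Ank3* minus *Ank2* went from -0.68, -1.09 and -0.98 at E15.5 to -2.18, -2.31 and -2.21 at P30, a change of -1.32 (exact permutation p = 0.1, adjusted 0.15). SGNs held more *Ank2* than *Ank3* in every library, HCs held more *Ank3* (2.47, 3.51 and 3.36) and glia were near equal (-0.37, 0.16 and 0.78). *Cntnap1* minus *Cntnap2* was -1.66, 0.35 and -1.49 at E15.5 and -0.32, 0.05 and 0.11 at P30, which overlapped, and the change of 0.88 had an exact permutation p of 0.4. In HCs this difference was -3.91, -3.36 and -3.31, below every SGN and glial library.

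**Figure D4:**
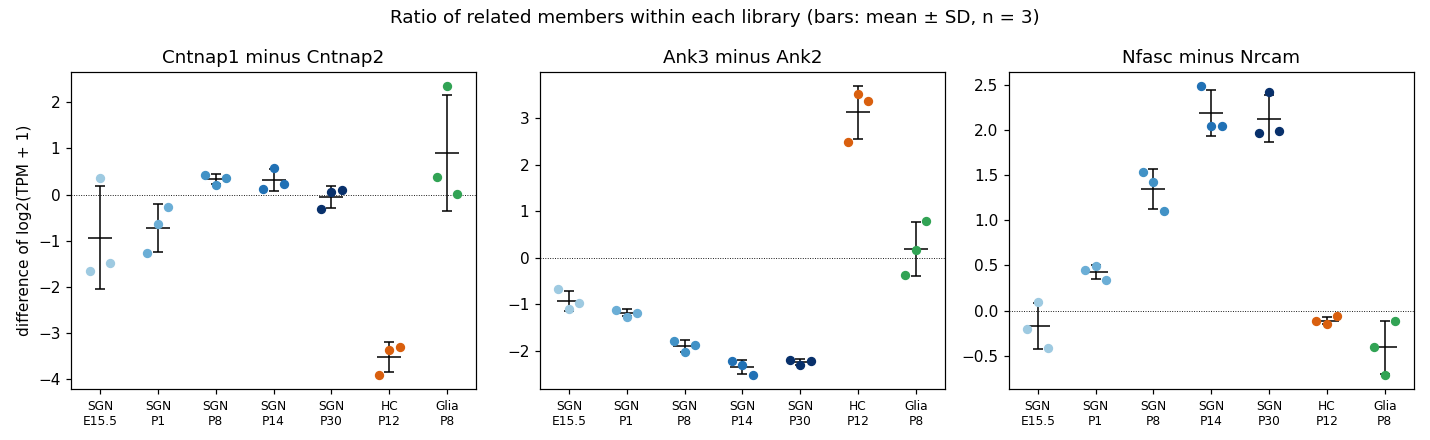
Difference of log2(TPM + 1) between 2 related members within each library, for *Cntnap1* and *Cntnap2*, *Ank3* and *Ank2*, and *Nfasc* and *Nrcam*, with 1 point per library and bars for the mean and SD (n = 3). *Nfasc* over *Nrcam* climbs from -0.17 at E15.5 to 2.13 at P30, *Ank3* over *Ank2* drops from -0.92 to -2.23 and is 3.12 in HCs, and *Cntnap1* over *Cntnap2* is -3.53 in HCs.

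Sodium and potassium channels are clustered by these proteins. Of 15 nodal and juxtaparanodal channel genes tested, 5 rose from E15.5 to P1, 8 rose and 5 fell from P1 to P8, and 3 rose from P8 to P14. Over all genes, 5.08% rose and 3.18% fell from E15.5 to P1, and 4.29% rose and 3.15% fell from P1 to P8. From P8 to P14 these shares were 0.251% and 0.285%. *Scn1a*, a sodium channel alpha subunit, went from 1.55 to 15.4 RPKM between E15.5 and P1 (3.37 on the log2 scale, limma BH-adjusted p = 3.3e-04). The auxiliary subunit *Scn4b* went from 0.904 to 32.1 between P1 and P8 (5.14, limma BH-adjusted p = 4.8e-06). *Scn3a*, an alpha subunit of immature neurons, fell from 13.5 to 3.82 over the same step, and the auxiliary subunit *Scn3b* from 36.4 to 9.37. From E15.5 to P30, 8 channel genes rose and 3 fell, with a median of 2.52 over the list beside -0.01 over all genes. Of all genes tested, 18.4% rose and 16.2% fell. In P8 SGNs, 11 of the 15 channel genes were above glia, and 13.4% of all genes were. The juxtaparanodal potassium channel *Kcna1* alone was below, with a level of 70.7 in SGNs and 336 in glia, beside 7.53% of all genes. Against HCs, 12 of the 15 were higher in P14 SGNs and *Scn3b* was lower, beside 10.9% and 12.2% of all genes.

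Among 18 tested partners under the membrane of the initial segment and node, 2 rose from E15.5 to P1, 2 rose and 1 fell from P1 to P8, and 6 rose and 3 fell from E15.5 to P30, with a median of 0.13 over the list. The shares of all genes that rose and fell were 5.08% and 3.18% from E15.5 to P1. They were 4.29% and 3.15% from P1 to P8, and 18.4% and 16.2% from E15.5 to P30. *Fgf12*, which binds sodium channels inside the cell, rose from 5.79 to 321 RPKM (a log2 change of 5.79, limma BH-adjusted p = 6.9e-08), and the third ankyrin, *Ank1*, from 3.97 to 38.8. *Trim46*, which bundles microtubules in the initial segment, fell from 12.9 to 3.11, and *Epb41l2*, a relative of *Epb41l3*, from 4.40 to 0.580. From P1 to P14 6 partners rose and 1 fell, beside 7.98% and 6.7% of all genes. In P8 SGNs 4 partners were above glia and 1 below, *Epb41l2*, at 4.16 against 40.4. Of all genes, 13.4% were above and 7.53% below.

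Of 18 tested adhesion and matrix partners, 1 fell from E15.5 to P1, 6 rose and 2 fell from P1 to P8, and 3 rose and 4 fell from E15.5 to P30, with a median of 0.09. The shares of all genes that rose and fell were 5.08% and 3.18% from E15.5 to P1. They were 4.29% and 3.15% from P1 to P8, and 18.4% and 16.2% from E15.5 to P30. *Hapln4*, a link protein of the extracellular matrix, rose from 0.891 to 45.8 RPKM between P1 and P8 (5.67, limma BH-adjusted p = 1.2e-06), and the proteoglycan *Bcan* from 0.218 to 4.61. The proteoglycan *Vcan* fell from 20.7 to 0.210 and *Chl1*, an adhesion molecule related to *Nrcam*, from 5.13 to 0.453 between E15.5 and P30. Against glia this list split in P8 SGNs, with 6 of 19 genes higher and 6 lower, beside 13.4% and 7.53% of all genes. *Lgi4*, a secreted Schwann cell protein, was among the lower ones, at 0.743 in SGNs and 21.2 in glia. *Cldn19*, a claudin of Schwann cells, was at 145 in glia and 0.548 in HCs.

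As a description of likeness, the 3 genes with the highest Pearson r of log2(TMM-scaled CPM + 1) to each member were found over the 15 SGN libraries among 9342 genes. The points share their ages, 3 libraries at each of 5, and genes are not independent of each other. *Cntnap1* was nearest to *Scn1a* (0.980), *Kcnip1* and *Alpk2*. *Epb41l3* was nearest to *Ndrg4* (0.987), *Idh3b* and *Klhdc8a*, and *Ank2* to *Ndufs1* (0.980), *Idh3b* and *Slc6a17*. *Cntn1* had *mt-Co1* (0.978), *Galnt13* and *Phyh*, and *Cntnap2* had *Sparcl1* (0.970), *Camta1* and *Magee1*. For *Nfasc* these were *Tmem184c* (0.980), *Sowahb* and *Usp20*, and for *Gldn* *Dstn* (0.959), *Cdk16* and *Tmem106b*. *Nrcam* was nearest to *Mex3b* (0.953), *Epha5* and *Thsd7a*. *Ank3* and *Sptbn4* had looser neighbours, *Gm4366* (0.882), *Ncor1* and *Ccdc88a* for the first and *Nfkb1* (0.919), *Snx10* and *Gtf2a2* for the second. *Sptbn4* stood at 29.004 in replicate 3 of E15.5, beside at most 8.38 in any other SGN library. Its r was not computed without that library. Among the members, r was 0.96 between *Ank2* and *Epb41l3* and between *Cntn1* and *Epb41l3*, 0.93 between *Cntn1* and *Cntnap1*, and -0.91 between *Nrcam* and *Cntnap1*.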

How the data were processed

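The authors mapped reads from amplified total RNA to mm10 with STAR 2.4.0i, counted them on GENCODE vM15 genes with featureCounts and deposited 1 table of counts, not normalised, with a length for each of 52550 genes. Strand and multimapping settings are not given in the sources used here. Each column was matched to its sample by its label. Of the genes, 147 had no symbol in GENCODE M21 (GRCm38).

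The counts were normalised by TMM (edgeR 4.0.16) and fitted with limma-voom (limma 3.58.1, R 4.3.3), both as in the study's methods. P-values were BH-adjusted over all genes tested here. Genes needed over 1 CPM in all replicates of at least 1 group. Ages were compared over the 15 SGN libraries (15113 genes) and cell types over all 21 (17531 genes). The fit was tested on simulated data. Exact tests used scipy 1.17.1, and figures matplotlib 3.10.9.

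All 10 members are named. From other lists, at most the 2 called genes with the largest rise and the 2 with the largest fall per comparison are named, and 3 genes of like pattern per member. A few genes that this rule takes are not reported here. The members and lists were chosen with earlier results of these data known. Alternatives were DESeq2 1.42.0, edgeR's quasi-likelihood test, other scalings, no filter, sample weights, fits of 2 groups, left-out libraries, the replicate number as a block and, for the cell types, the mean of the 5 SGN ages. Same-numbered libraries deviated together for P14 and P30 (r of 0.15 to 0.41) and for P1 and P14 (0.12 to 0.28), every r over 0.1. For replicates 1, 2 and 3, r was 0.41, 0.07 and 0.16 between P1 and P8. Between P8 and P14 it was 0.39, 0.16 and 0.07. In the remaining comparisons every r was under 0.1. Library totals of 10368240 to 37287489 counts set the precision; a floor of 3 counts covers counting error only.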

Additional observations from a re-analysis of the deposited data

How the results depend on the processing

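Of 32 calls over 9 comparisons, 14 held under every alternative that gave an adjusted p, and 11 of 58 uncalled members were called under some alternative. No called change turned its direction. The cause of these shifts was not tested, except that fits of 2 groups and left-out libraries have fewer samples. DESeq2 gave no adjusted p for *Sptbn4* in 9 comparisons and for *Cntnap2* in 3, 4 of which were calls in limma. Without 1 library, an arm of 2 shares the spread of the other groups. Depth limits *Sptbn4* outside neurons most.

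From P1 to P8, where limma called 2 members, edgeR's quasi-likelihood test called 1, log2(TPM + 1) called 0, and leaving out 1 library gave 1 to 2. Over all genes, limma called 1124, edgeR 649 and log2(TPM + 1) 304, and leaving out 1 library gave 638 to 982. From P14 to P30 the count of 1 became 0 with edgeR, on log2(TPM + 1) and with only the 2 groups, and 0 to 1 without 1 library. All-gene calls of this step went from 9 to 6 with edgeR, 1 on log2(TPM + 1) and 2 with only the 2 groups. Without 1 library they were 1 to 30. From P1 to P14, log2(TPM + 1) called 1 of the 3, and 999 of all genes beside 2219 in limma. With library size only *Cntnap1* (0.78) and *Nfasc* (0.75) lost that call and *Nrcam* gained one as a fall (-1.10), and edgeR, DESeq2 and sample weights each lost *Cntnap1*. From E15.5 to P30, *Ank2* lost its call with library size only (0.62) and on log2(TPM + 1) (0.92). Against glia the 7 calls ranged from 4 to 8 without 1 library, and those over all genes from 3014 to 3883, beside 3662. *Cntnap1* and *Sptbn4* also lost this call with sample weights, and *Gldn* and *Epb41l3* with library size only. Against HCs the 6 calls became 3 with library size only and 3 on log2(TPM + 1). Over all genes, the 1910 higher calls became 1229 and 759 in these settings. Between HCs and glia the 2 calls became 1 with edgeR, 1 without the filter, 1 with only the 2 groups and 4 on log2(TPM + 1). Over all genes, the 4272 calls became 3319, 4901, 3216 and 5640 in the same order. The replicate block changed no call of a member. From P14 to P30 the block moved the calls over all genes from 9 to 23, though no label pairs these libraries. Paralog differences kept their direction under each alternative, the block included.

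Scaling by library size only moved the median over all genes to -0.49 from E15.5 to P30, to -0.75 for SGNs against HCs and to 0.63 for HCs against glia. Over all genes, SGNs against HCs then had 1229 higher and 3325 lower calls, beside 1910 and 2136 with TMM. On log2(TPM + 1) the median over all genes was 0.42 from E15.5 to P1, -0.34 from P1 to P8 and -0.27 from P14 to P30. It was -0.95 for SGNs against HCs and 1.26 for HCs against glia. Changes are relative to these shifts.

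Directions turned only where a member was not called. On log2(TPM + 1) the change was 0.33 for *Nfasc* from E15.5 to P1, -0.11 for *Ank2*, -0.30 for *Cntnap2* and -0.28 for *Sptbn4* from P1 to P8, and -0.26 for *Nfasc*, -0.012 for *Cntnap2*, -0.20 for *Nrcam* and -0.28 for *Epb41l3* from P14 to P30. On that scale *Cntnap2* was at -0.46 for SGNs against HCs, and *Ank3* at 0.30, *Epb41l3* at 0.16 and *Gldn* at 1.47 for HCs against glia. With library size only, *Cntnap2* was at -0.090 and *Sptbn4* at -0.10 from P1 to P8, *Cntn1* at -0.078 from P8 to P14, *Sptbn4* at -0.038 from E15.5 to P30, *Nrcam* at -0.011 for SGNs against glia and *Gldn* at 0.39 for HCs against glia. *Gldn* in that comparison was 0.0063 with DESeq2, 0.067 with DESeq2 size factors and 0.028 with only the 2 groups. *Sptbn4* was -0.54 with edgeR from E15.5 to P30. Without the filter, *Cntn1* was -0.0099 from P8 to P14 and *Ank3* 0.015 from P14 to P30, and *Nrcam* was 0.050 against HCs for the mean of the 5 ages.

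Without 1 library, *Sptbn4* ranged from -1.43 to 0.66 from E15.5 to P1 and from -0.37 to 1.71 from E15.5 to P30. *Gldn* ranged from -0.25 to 0.13 and *Cntn1* from -0.044 to 0.12 from P8 to P14, *Ank3* from -0.081 to 0.052 and *Cntnap1* from -0.17 to 0.12 from P14 to P30, and *Cntnap2* from -0.081 to 0.13 from P1 to P14. *Nrcam* ranged from -0.10 to 0.31 against glia and *Gldn* from -0.22 to 0.013 for HCs against glia.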

Other observations

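The marker lists of the cell types moved with age in the SGN libraries as well. Of 9 SGN and neuronal markers, 5 rose and 2 fell from E15.5 to P30, beside 18.4% and 16.2% of all genes. *Snap25*, a protein of synaptic vesicle release, rose from 66.1 to 1969 RPKM and *Slc17a7*, a vesicular glutamate transporter, from 4.81 to 55.8. The transcription factor *Gata3* fell from 66.1 to 6.37 RPKM. All 9 were higher in P8 SGNs than in glia, and 8 of 9 were higher in P14 SGNs than in HCs. Over all genes these shares were 13.4% and 10.9%. Of 12 Schwann cell and glial markers tested, 1 rose and 2 fell from E15.5 to P30, and *S100b* was the one that rose, from 8.49 to 220 RPKM. Of 10 hair cell markers, 3 rose from E15.5 to P30, *Tmc1*, a part of the transduction channel, from 0.710 to 3.31 RPKM among them. All 10 were lower in P14 SGNs than in HCs, beside 12.2% of all genes.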
